A study of Mus musculus with 2 samples.

Results

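Pericytes and the other mural cells of the mouse cerebral cortex at embryonic day 16.5 were examined in single-cell RNA sequencing data of 2 libraries. Both libraries were WT and came from control embryos of an *Eomes-Cre* line, whose titles carry the name EomesDot. No deletion and no treatment was labelled, and how many embryos went into a library was not stated. The cortex was dissociated with papain, and the libraries held 46398156 and 64324236 UMIs over 32285 genes. A mural cell was defined as a barcode with 1500 to 60000 unique molecular identifiers (UMIs, counted RNA molecules) and less than 10% mitochondrial UMIs, in which at least 3 of the 6 genes *Rgs5*, *Kcnj8*, *Pdgfrb*, *Vtn*, *Abcc9* and *Cspg4* were detected while *Cldn5*, *Pecam1*, *Lum*, *Dcn*, *Neurod6* and *Gad2* had no UMI. This rule found 66 mural cells among 16213 barcodes within the limits. WT replicate 1 held 29 of 5966 (0.486%, exact 95% binomial interval 0.326 to 0.697%) and WT replicate 2 held 37 of 10247 (0.361%, 0.254 to 0.497%), so the intervals of the libraries overlapped. Intervals cover counting error only.

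Mural cells are the contractile and supporting cells that lie on the outer face of blood vessels. Pericytes sit on capillaries inside the basement membrane that they share with endothelial cells, whereas vascular smooth muscle cells ring arterioles and carry a fuller set of contractile proteins. In the embryonic brain, endothelial cells release PDGF-B, which draws pericytes along new vessels through the receptor PDGFRB. Notch signals from the endothelium act through NOTCH3 on the mural cell, and mural cells secrete matrix, angiopoietin 1 and other factors that steady the vessel.

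The members were chosen by their UMIs of the 6 marker genes and of the 6 excluding genes, which are therefore described with no test. All 6 marker genes were detected in 49 of the 66 mural cells, 5 in 12, 4 in 3 and 3 in 2. *Rgs5*, a regulator of G protein signalling, had a median of 47 UMIs per cell in WT replicate 1 and 23 in WT replicate 2. *Vtn*, which encodes the plasma and matrix protein vitronectin, had medians of 13 and 7. *Abcc9* and *Kcnj8* encode the subunits of a potassium channel gated by ATP, with medians of 8 and 6 UMIs and of 7 and 4 UMIs. *Pdgfrb* had medians of 6 and 5 and the proteoglycan gene *Cspg4*, which encodes NG2, of 2 and 1. Every one of the 6 medians was lower in WT replicate 2, where the mural cells were also shallower (median 6292 UMIs and 2729 genes per cell against 8934 and 3318). Scaled to counts per 1000000 summed UMIs of the class (CPM), the levels of the libraries lay closer together, at 4905 and 4221 CPM for *Rgs5* and 674 and 689 CPM for *Pdgfrb*, in the order WT replicate 1 and WT replicate 2 that all paired values follow.

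**Figure D1:**
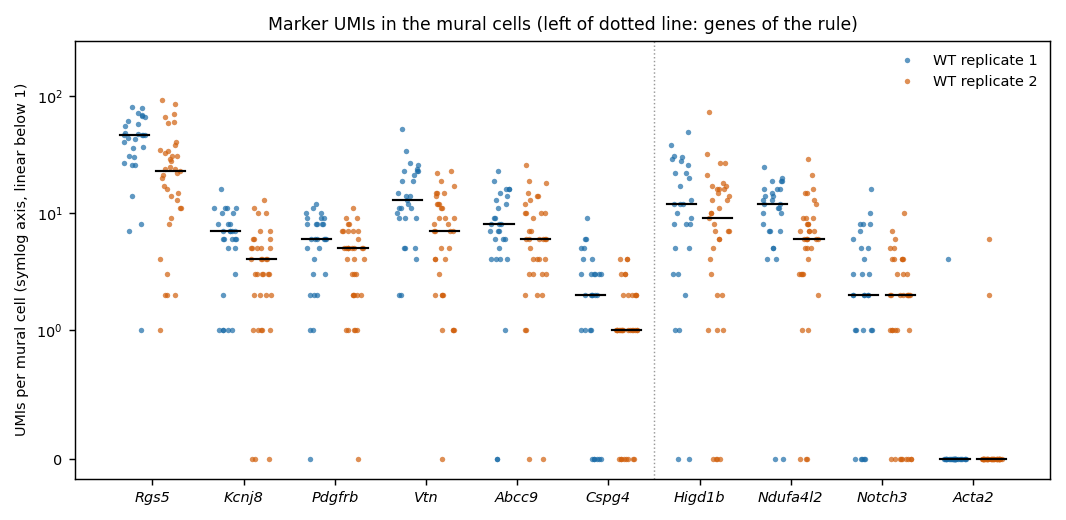
UMIs of 10 genes in each of the 66 mural cells, on a symmetric log axis that is linear below 1. Points are cells, blue for WT replicate 1 (29 cells) and orange for WT replicate 2 (37 cells), and black lines are medians. The 6 genes left of the dotted line belong to the rule. *Higd1b* and *Ndufa4l2*, which the rule did not use, had medians of 12 and 12 UMIs in WT replicate 1 and 9 and 6 in WT replicate 2, while *Acta2* was at 0 in all but 3 cells.

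The edge of the rule held few barcodes on its marker side. The 2 cells with 3 markers had 15 and 18 UMIs of the 6 genes, and 16 and 10 UMIs of *Higd1b*, *Ndufa4l2* and *Notch3*, which the rule did not use. Just outside, 8 barcodes had 2 markers and none of the excluding genes, all in WT replicate 2, with 2 to 5 UMIs of the 6 genes. The 3 genes outside the rule had 3, 6, 6 and 9 UMIs in 4 of these 8 barcodes and none in the others. The 8 markers of oligodendrocyte precursors summed to 8, 23, 86 and 123 UMIs in 4 of the 8 barcodes, 1 of which also had 6 UMIs of the pericyte genes, and to at most 3 UMIs in the others, compared with 0 and 1 in the 2 cells inside the rule. The excluding genes removed 59 of the 125 barcodes that had 3 or more markers. *Neurod6*, a gene of excitatory neurons, was found in 32 of these 125 barcodes and was the sole excluding gene in 24. It was also found in 54.4% of all 16213 barcodes, and *Gad2*, a gene of inhibitory neurons, in 34.2%. Without the conditions on *Neurod6* and *Gad2*, an alternative chosen after the data were seen, the mean share of mural cells was 0.640% instead of 0.424%, and with less than 5% mitochondrial UMIs it was 0.272%. None of the 66 mural cells met the gate of another class or carried one of the 40 barcode sequences present in both libraries. With the barcodes of highest doublet score removed, 25 and 34 mural cells were left.

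Summed markers of the other cell types that a mural gate could admit were lower in both mural libraries than in the class set beside them. The comparison classes were gated in the same way: 30 and 79 endothelial cells, 26 and 62 fibroblasts, 18 and 54 microglia, and 5768 and 9638 other cells, which had at most 1 gene of each gate list. The 16 endothelial markers outside the gates summed to 372 and 384 CPM in mural cells and to 5275 and 5569 CPM in endothelial cells. Of these, *Ly6c1*, *Sox17*, *Sox18* and *Robo4* were at 0 in mural cells. The 12 markers of microglia and macrophages summed to 34.8 and 61.9 CPM against 10035 and 16665 CPM in microglia, with 7 of the 12 at 0. The 8 markers of oligodendrocyte precursors, which also carry NG2 and PDGF receptors, summed to 3.87 and 16.5 CPM against 633 and 629 CPM in other cells, and *Pdgfra*, *Olig1* and *Sox10* were at 0. The 14 neuron markers summed to 348 and 503 CPM against 8486 and 8597 CPM in other cells. Among them *Stmn2* stood at 116 and 149 CPM in mural cells, 145 and 174 in endothelial cells, 106 and 135 in fibroblasts and 141 and 223 in microglia, against 1029.7 and 1252 CPM in other cells. This neuronal gene was thus found at like levels in 4 classes that are not neurons. The 12 markers of radial glia and intermediate progenitors summed to 546 and 598 CPM against 2305 and 2333 CPM in other cells, with 4 at 0. Most of this sum was *Fabp7*, a fatty acid-binding protein gene of radial glia, at 418 and 503 CPM in mural cells, 139 and 939.8 in endothelial cells, 388 and 606 in fibroblasts and 1299.5 and 1353 in other cells. Hemoglobin and other red blood cell genes summed to 410 and 1102 CPM in mural cells and to 10485 and 13258 CPM in other cells.

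Fibroblast markers outside the gates summed to 2245 and 2492 CPM in mural cells, compared with 8788 and 8861 CPM in fibroblasts and 482 and 554 CPM in endothelial cells. The largest part of the sum in mural cells came from *Igf2*, a growth factor gene, at 1072 and 1234 CPM. *Igf2* stood at 1396 and 1295 CPM in fibroblasts, and the difference did not pass the test (log2 difference -0.41 ± 0.18 SE, adjusted p = 0.2). *Col1a2*, a collagen I chain, was lower than in fibroblasts, at 205 and 202 against 1296 and 1651 CPM (log2 difference -3.01 ± 0.22 SE, adjusted p = 7.5e-39). Of the 16 markers, 4 had no UMI in mural cells (*Pdgfra*, *Col6a1*, *Crabp2* and *Mfap4*), and *Slc6a13* stood at 0 and 8.25 CPM against 447 and 326 CPM. Among gate genes that the mural rule did not use, *Col3a1* was at 259 and 363 CPM in mural cells, and the endothelial genes *Emcn* and *Flt1* were at 159 and 206 and 77.4 and 149 CPM, while *Cdh5* was at 0. What part the remaining fibroblast and endothelial RNA had in the comparisons was not tested.

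**Figure D2:**
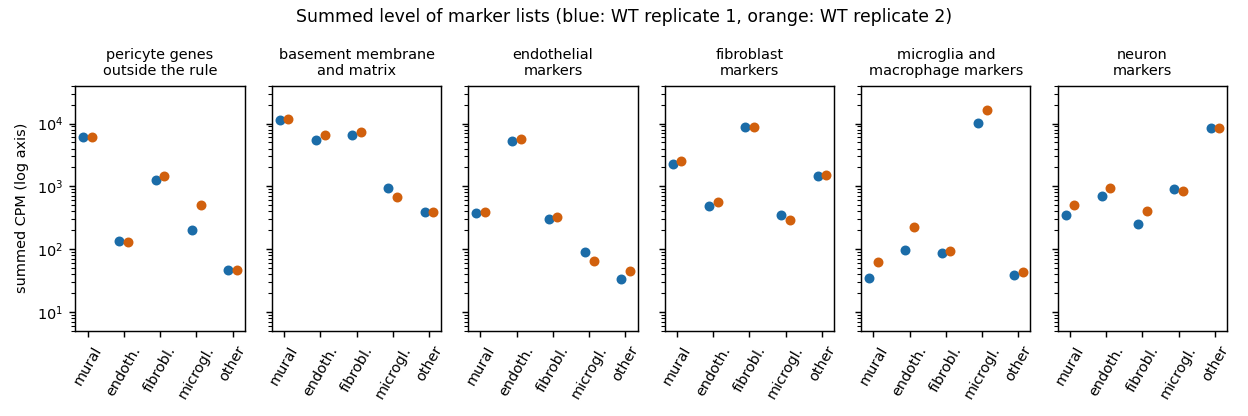
Summed CPM of 6 gene lists in the 5 gated classes, on a log axis, with 1 point per library (blue, WT replicate 1; orange, WT replicate 2). The 20 pericyte genes outside the rule summed to 6202 and 6205 CPM in mural cells and at most 1458 CPM in any other class, while endothelial, microglia and neuron markers were each highest in another class.

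Differences between classes were tested with edgeR's quasi-likelihood test on UMIs summed per library and class, with the library as a block and Benjamini-Hochberg adjustment over 18086 genes, and a gene was called at an adjusted p below 0.05. The 26 gate genes were not tested. Against endothelial cells, 1742 genes (9.63%) were called, 833 higher in mural cells (4.61%) and 909 lower (5.03%). The larger direction was not stable here, since DESeq2 called 788 genes higher and 655 lower. Against fibroblasts, 1490 genes (8.24%) were called, 602 higher (3.33%) and 888 lower (4.91%). Against other cells, 4429 genes (24.5%) were called, 1849 higher (10.2%) and 2580 lower (14.3%), and 58.6% of the calls that DESeq2 made in this comparison were higher, compared with 41.7% here. The median gene lay at -0.05, -0.05 and -0.67 on the log2 scale in the 3 comparisons. The gates keep *Kcnj8*, *Pdgfrb* and *Abcc9* at 0 in endothelial cells, and *Kcnj8* and *Abcc9* at 0 in fibroblasts, and the part of these gates in the differences of other genes was not tested. Where a class had no UMI of a gene, the fold is a lower bound, set from 3 UMIs over both libraries. List medians against other cells are given without such bounds and rest on fitted folds. A gene with no mural UMI and few CPM in other cells would get a bound with the wrong direction. The lists below were compared with these background shares, without a test of the list.

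The naming rule ordered called genes by their fitted fold, which puts genes with no UMI in 1 class first and is no measured order of folds. Against endothelial cells, the 10 higher genes it named had 0 UMIs in the 109 endothelial cells. *Grm3*, a metabotropic glutamate receptor, stood at 511 and 404 CPM (at least 148-fold higher; adjusted p = 5.1e-55). *Mmp9*, a matrix metalloproteinase, stood at 476 and 264 CPM (at least 120.3-fold higher), and *Rgs4*, another regulator of G protein signalling, at 321 and 189.8 CPM (at least 82.97-fold higher). These 3 genes were high in both mural libraries and absent from both endothelial libraries. The others were *Cox4i2*, *Atp13a5*, *Tbx2*, *Fam162b*, *Vstm4*, *Heyl* and *Adap2*, with bounds from 61.7-fold to 123-fold. The 10 genes lower by the same rule had no UMI in mural cells. They included *Vwa1*, at 501 and 604 CPM in endothelial cells (at least 95.01-fold lower; adjusted p = 4.2e-51), and transport genes of the blood-brain barrier, namely *Mfsd2a* (207 and 286 CPM) and *Abcb1a* (198 and 169.6 CPM), whose calls DESeq2 did not make, and *Slc39a8* (281 and 226 CPM). The remaining members were *Palmd*, *Cyyr1*, *Rassf9*, *AU021092*, *Lcp1* and *Reep1*.

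Against fibroblasts the same rule named *Mmp9*, *Rgs4*, *Gja4*, *Itga4*, *Mcam*, *Adap2*, *Esam*, *Apold1*, *Art3* and *Car4*, all at 0 in the 88 fibroblasts. *Gja4*, a gap junction gene, stood at 225 and 248 CPM in mural cells (at least 75.3-fold higher; adjusted p = 5.3e-27), and *Itga4*, an integrin chain, at 225 and 202 CPM (at least 68.3-fold higher). Several of these genes were shared with endothelium: *Esam*, a junction protein, stood at 507 and 468 CPM in endothelial cells and was lower in mural cells, at 132 and 140.3 CPM (log2 difference -1.91 ± 0.26 SE, adjusted p = 4.0e-12). Lower genes, with no UMI in mural cells, were *Mfap4* (246 and 454 CPM in fibroblasts; at least 62.8-fold lower), the zinc finger gene *Bnc2* (383 and 315 CPM), *Slc22a6*, *Ranbp3l*, *Ecrg4*, *Pdgfra*, *Col6a1*, *Crabp2*, *Asic2* and *Bmp7*. Against other cells, the higher genes were *Carmn*, *Higd1b*, *Slc38a11*, *Cpa1*, *Des*, *Adap2*, *Fam162b*, *Foxs1*, *Mmp9* and *Tbxa2r*. *Carmn*, a noncoding RNA of smooth muscle and pericytes, stood at 116 and 119.7 CPM with 2 UMIs in all other cells, a ratio of 5406 (95% counting interval 1432 to 45681). *Tbxa2r*, the thromboxane A2 receptor, stood at 232 and 136 CPM (log2 difference 10.44 ± 0.61 SE, adjusted p = 5.6e-63), and the intermediate filament gene *Des* at 96.8 and 128 CPM (log2 difference 10.83 ± 0.92 SE, adjusted p = 2.1e-30). The lower genes were led by *Nkain3* (718 and 650.2 CPM in other cells; at least 113-fold lower) and the potassium channel genes *Kcnh7* (476 and 417 CPM) and *Kcnq3* (386 and 349 CPM), followed by *Ralyl*, *Gm29260*, *Dok6*, *Tmem108*, *Arpp21*, *Sh3rf3* and *Gramd1b*.

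**Figure D3:**
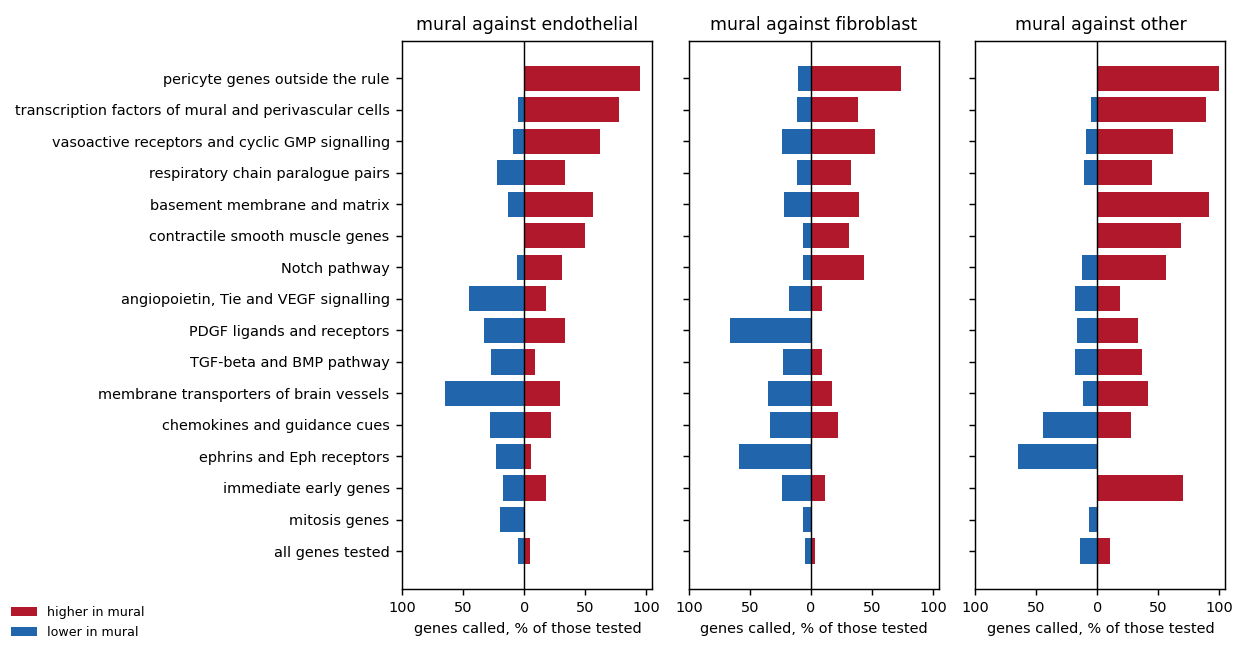
Share of the tested genes of each list that were called higher (red, to the right) or lower (blue, to the left) in mural cells, in percent, against endothelial cells, fibroblasts and other cells; the bottom bar gives all 18086 genes tested. Of the 19 pericyte genes tested, 18 were higher than in endothelial cells, whereas ephrins and Eph receptors were lower than in fibroblasts for 10 of 17 and higher for none.

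Pericyte genes outside the rule, such as *Higd1b*, were higher in mural cells almost throughout. Of 20 listed, 19 were tested, and 18, 14 and 19 of them were higher than in endothelial cells, fibroblasts and other cells, against backgrounds of 4.61%, 3.33% and 10.2% of all genes. Over the list the median log2 difference was 9.03 (6.02 with empty classes at their bound), 4.82 (4.56 with empty classes at their bound) and 7.48 in the 3 comparisons. The list was drawn up with earlier results of these libraries known, so these counts are no independent evidence of its direction. Its exceptions were shared with fibroblasts: *Colec12*, a scavenger receptor, stood at 89.04 and 82.5 CPM against 556 and 597 CPM in fibroblasts (log2 difference -2.91 ± 0.27 SE, adjusted p = 5.8e-25), and *Postn*, the matrix protein periostin, at 50.3 and 99.02 against 215 and 269.6 CPM (log2 difference -1.88 ± 0.32 SE, adjusted p = 2.0e-07). *Ifitm1*, an interferon-induced membrane protein gene, was not called against fibroblasts (356 and 330.1 against 268 and 198 CPM; adjusted p = 0.43).

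3 members of the list are paralogues of respiratory chain proteins. *Higd1b* (chromosome 11, 102835761 to 102844141, GRCm38.p6) stood at 1645 and 1795 CPM in mural cells, 3.09 and 1.56 in endothelial cells and 5.59 and 11.6 in fibroblasts. With 2 UMIs in endothelial cells, the ratio was 829.7 (95% counting interval 229 to 6862), and against fibroblasts the log2 difference 7.44 ± 0.33 SE, adjusted p = 3.1e-108. At least 1 UMI was found in 27 of 29 and 33 of 37 mural cells (93.1% and 89.2%), and in 3 of 671 and 3 of 827 *Neurod6*-expressing neurons (0.447% and 0.363%), whose median depths of 9530 and 8889 UMIs were above those of mural cells. After every cell was thinned to 1500 UMIs, the mural shares were 86.2% and 75.7%. *Ndufa4l2* (chromosome 10, 127509274 to 127517154), a paralogue of the cytochrome c oxidase subunit gene *Ndufa4*, stood at 1285 and 1118 CPM against 3.09 and 1.56 in endothelial cells, a ratio of 582 (95% counting interval 160.4 to 4815). It was detectable in fibroblasts, at 33.5 and 69.9 CPM (log2 difference 4.32 ± 0.26 SE, adjusted p = 1.4e-59). *Cox4i2* (chromosome 2, 152753916 to 152765039), the second isoform of cytochrome c oxidase subunit 4, stood at 406 and 355 CPM and had no UMI in endothelial cells (at least 123-fold higher).

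The widely used partners of these genes were lower or not called against the vascular classes. *Ndufa4* was lower in mural cells than in all 3 classes, at 333 and 206 CPM against 711 and 752 in endothelial cells (log2 difference -1.52 ± 0.21 SE, adjusted p = 1.0e-11), 929.9 and 769 in fibroblasts (log2 difference -1.81 ± 0.21 SE, adjusted p = 1.3e-16) and 597 and 651 in other cells (log2 difference -1.33 ± 0.20 SE, adjusted p = 5.4e-10). Both mural libraries lay below both libraries of each of these classes. *Cox4i1* was not called against endothelial cells (1576 and 1782 against 1416 and 1298 CPM; log2 difference 0.23 ± 0.17 SE, adjusted p = 0.59) or fibroblasts and was higher than in other cells (882 and 994 CPM; log2 difference 0.72 ± 0.16 SE, adjusted p = 6.9e-05). *Higd1a* was lower than in endothelial cells (116 and 86.6 against 182 and 188 CPM; log2 difference -0.94 ± 0.29 SE, adjusted p = 0.017) and was not called against fibroblasts or other cells. In all, 3 of the 9 tested genes of this list were higher and 2 lower than in endothelial cells, 3 were higher and 1 lower than in fibroblasts, and 4 were higher and 1 lower than in other cells. List medians on the log2 scale were 0.23, -0.14 and 0.72.

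**Figure D4:**
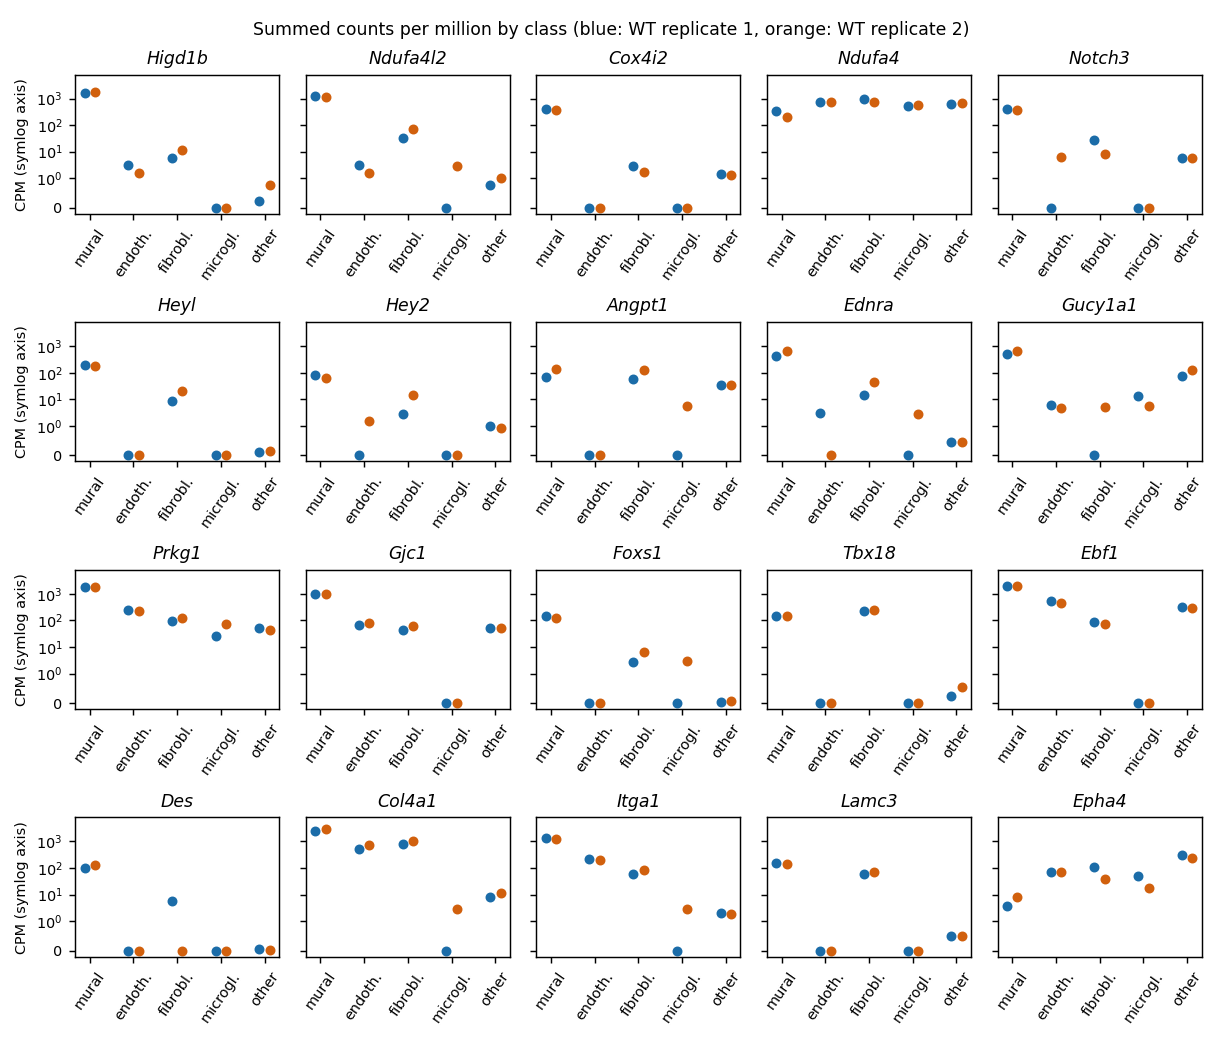
CPM of 20 genes in the 5 gated classes, on a symmetric log axis that is linear below 1, with 1 point per library (blue, WT replicate 1; orange, WT replicate 2). *Higd1b*, *Ndufa4l2* and *Cox4i2* were highest in mural cells, *Ndufa4* was lowest there, *Tbx18* was shared with fibroblasts, and *Epha4* was lower in both mural libraries than in both libraries of every other class.

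Transcription factors of mural and perivascular cells were higher for most members than in endothelial and other cells. Of 18 tested, 14 were higher and 1 lower than in endothelial cells, 7 higher and 2 lower than in fibroblasts, and 16 higher and 1 lower than in other cells. The median log2 differences were 10.42 (3.83 with empty classes at their bound), 0.06 and 6.11. *Foxs1*, a forkhead factor, stood at 147 and 119.7 CPM, with no UMI in endothelial cells (at least 43.1-fold higher) and 2.79 and 6.66 CPM in fibroblasts (log2 difference 4.54 ± 0.83 SE, adjusted p = 2.1e-06). *Tbx2*, a T-box factor, stood at 244 and 177 CPM against 2.79 and 9.98 in fibroblasts (log2 difference 4.67 ± 0.57 SE, adjusted p = 1.9e-14), and *Ebf1* at 1889 and 1931 CPM against 86.6 and 73.2 in fibroblasts (log2 difference 4.43 ± 0.23 SE, adjusted p = 9.7e-80) and 544 and 445 in endothelial cells (log2 difference 1.88 ± 0.19 SE, adjusted p = 3.2e-21). These 3 genes were higher in both mural libraries than in both libraries of endothelial cells and of fibroblasts. *Mef2c* (519 and 578 CPM) and *Epas1*, which encodes a hypoxia-inducible factor (309.7 and 264 CPM), were higher than in fibroblasts (4.60 and 3.87 on the log2 scale), but *Epas1* was not called against endothelial cells (186 and 208 CPM; adjusted p = 0.35).

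Several factors of the list were common to mural cells and fibroblasts. *Tbx18*, a T-box factor of both and lower in mural cells, stood at 143 and 149 CPM in mural cells and 218 and 255 in fibroblasts (log2 difference -0.85 ± 0.28 SE, adjusted p = 0.032), and had no UMI in endothelial cells (at least 46.95-fold higher); the call against fibroblasts was lost in DESeq2, without the filter on low counts and without the conditions on *Neurod6* and *Gad2*. *Foxd1* (155 and 94.9 against 145 and 178 CPM), *Prrx1* (194 and 165 against 103 and 196 CPM), *Zic1* (298 and 351 against 274 and 288 CPM) and *Twist1* (54.2 and 53.6 against 83.8 and 79.9 CPM) were not called against fibroblasts and were higher than in endothelial cells. *Foxf2*, a factor of brain pericytes, was also present in endothelial cells (58.1 and 74.3 against 68.02 and 62.2 CPM; adjusted p = 1). *Meis2*, a factor of many cortical neurons and progenitors, was the member lower in all 3 comparisons, at 11.6 and 28.9 CPM against 1974 and 1837 in other cells (log2 difference -6.71 ± 0.30 SE, adjusted p = 3.1e-106), 55.7 and 166 in endothelial cells and 47.5 and 44.9 in fibroblasts. Its direction depended on the excluding genes: without the conditions on *Neurod6* and *Gad2* its difference turned to 1.02 against endothelial cells and 2.27 against fibroblasts on the log2 scale, and with doublets removed neither call was made. *Tcf21* had no UMI in any class.

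Genes for vasoactive receptors and cyclic GMP signalling, through which vessel tone is set, were mostly higher in mural cells. Of 21 tested, 13 were higher and 2 lower than in endothelial cells, 11 higher and 5 lower than in fibroblasts, and 13 higher and 2 lower than in other cells. Over the list the median log2 difference was 5.005 (3.93 with empty classes at their bound), 1.91 and 3.52 in the 3 comparisons. *Ednra*, the receptor for endothelin 1, stood at 422 and 668 CPM against 13.96 and 46.6 in fibroblasts (log2 difference 3.93 ± 0.31 SE, adjusted p = 1.1e-34); with 1 UMI in endothelial cells the ratio there was 523 (95% counting interval 93.1 to 20730.0). *S1pr3*, a receptor for sphingosine 1-phosphate, stood at 136 and 169 CPM with none in endothelial cells (at least 48.9-fold higher). Its paralogue *S1pr1* had the opposite pattern, with 1 UMI in mural cells and 83.5 and 154 CPM in endothelial cells, a mural to endothelial ratio of 0.0153 (95% counting interval 0.000385 to 0.0869).

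Genes of cyclic GMP signalling were higher in mural cells than in endothelial cells and fibroblasts. *Gucy1a1* and *Gucy1b1*, the subunits of soluble guanylate cyclase, stood at 507 and 652 and at 445 and 421 CPM, against 6.18 and 4.67 and 6.18 and 3.11 CPM in endothelial cells (log2 difference 6.82 ± 0.40 SE, adjusted p = 1.2e-60, and log2 difference 6.64 ± 0.45 SE, adjusted p = 5.1e-47). *Prkg1*, the protein kinase that cyclic GMP activates, stood at 1835 and 1782 CPM against 247 and 219 (log2 difference 2.89 ± 0.21 SE, adjusted p = 1.5e-41). The phosphodiesterase genes *Pde3a* (488 and 590.0 CPM) and *Pde5a* (263 and 384 CPM) were higher than in fibroblasts by 5.20 and 2.94 on the log2 scale. All 5 genes were higher in each mural library than in each endothelial and fibroblast library. *Gjc1*, a gap junction gene, stood at 1003 and 953 CPM against 64.9 and 77.8 in endothelial cells (log2 difference 3.68 ± 0.25 SE, adjusted p = 1.8e-46). In contrast *Gja1* was lower than in fibroblasts (7.74 and 8.25 against 726 and 611 CPM, log2 difference -6.54 ± 0.41 SE, adjusted p = 2.1e-54). It was also called lower than in endothelial cells. *Agtr1a*, *Adra1a* and *P2rx1*, receptors for angiotensin, noradrenaline and ATP, had at most 12.4 CPM in either mural library.

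Some contractile genes were higher in mural cells than in endothelial cells and fibroblasts, while several genes of mature smooth muscle were at or near 0. Of 16 tested, 8 were higher than in endothelial cells and none lower, 5 higher and 1 lower than in fibroblasts, and 11 higher than in other cells. List medians on the log2 scale were 2.23, 1.07 and 3.96. *Cald1*, which encodes caldesmon, stood at 3139.7 and 2942 CPM against 52.6 and 68.5 in endothelial cells (log2 difference 5.54 ± 0.23 SE, adjusted p = 1.6e-119) and 438 and 549 in fibroblasts (log2 difference 2.46 ± 0.19 SE, adjusted p = 5.6e-37). *Myl9*, a myosin light chain, stood at 662 and 569 CPM against 6.18 and 3.11 (log2 difference 7.08 ± 0.42 SE, adjusted p = 4.8e-61), and *Mylk*, the kinase of such chains, at 271 and 371 CPM against 3.09 and 7.78 (log2 difference 5.72 ± 0.48 SE, adjusted p = 1.0e-29). In contrast *Acta2*, smooth muscle actin, had 12 UMIs in 3 of the 66 cells (15.5 and 33.01 CPM), *Myh11*, smooth muscle myosin, stood at 3.87 and 4.13 CPM, and *Cnn1* and *Actg2* had no UMI. Even so *Acta2* was called against endothelial cells, where it had no UMI (at least 7.72-fold higher; adjusted p = 0.016), a call lost with at least 4 markers required, and was not called against fibroblasts.

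At least 3 of the 10 genes *Acta2*, *Tagln*, *Myh11*, *Cnn1*, *Lmod1*, *Actg2*, *Des*, *Pln*, *Synpo2* and *Mustn1* were detected in 0 of 29 mural cells of WT replicate 1, which allows a share of up to 10.3% by the limit of 3 counts and 11.9% by the exact interval, and in 1 of 37 of WT replicate 2 (2.70%, exact interval 0.0684 to 14.2%). No *Neurod6*-expressing neuron had 3 of these genes (0 of 671 and 0 of 827, which allows up to 0.447% and 0.363% by the limit of 3 counts and 0.548% and 0.445% by the exact interval), and thinning to 1500 UMIs left the mural counts at 0 and 1. The counts were 0 of 28 and 0 of 36 with at least 4 markers required, and 2 of 42 and 3 of 59 without the conditions on *Neurod6* and *Gad2*, where the mean share was 4.92% instead of 1.35%. The fibroblast counts were 4 of 26 and 1 of 62, and 0 and 0 after thinning. The single mural cell with 3 contractile genes was also the cell just inside the rule in WT replicate 2: it had *Rgs5*, *Pdgfrb* and *Vtn* but no *Kcnj8*, *Abcc9* or *Cspg4*, with 6 UMIs of *Acta2*, 1 of *Higd1b* and 6 of *Ndufa4l2* among 5813. This cell was described after its values were seen.

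The promoter of *Myl9* is shown because its window holds the CArG box, the site of serum response factor, which controls many contractile genes. The window spans chr2:156775214-156775513 on the plus strand of GRCm38.p6, from 250 bases before to 50 bases after the RefSeq start, and capitals mark the box.
Myl9: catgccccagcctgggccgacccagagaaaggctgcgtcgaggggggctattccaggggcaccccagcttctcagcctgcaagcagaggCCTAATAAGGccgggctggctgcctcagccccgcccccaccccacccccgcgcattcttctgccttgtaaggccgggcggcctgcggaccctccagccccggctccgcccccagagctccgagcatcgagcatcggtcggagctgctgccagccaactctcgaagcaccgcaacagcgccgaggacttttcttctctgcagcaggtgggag
Of the 20 contractile genes, 16 had a window, and the box was found on either strand in 3 of their 17 windows, those of *Myl9*, *Cnn2* and *Srf*. It was found in 1.63% of all 32851 windows. *Myl9* and *Cnn2* were higher in mural than in endothelial cells (0.82 on the log2 scale for *Cnn2*, not called by DESeq2), whereas *Srf* was not called. A match is a description of letters and not a bound site.

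Of the Notch pathway genes, *Notch1*, *Notch3*, *Hey2*, *Heyl* and *Maml2* were higher in mural than in endothelial cells, and the ligand gene *Jag2* was lower. Of 16 tested, 5 were higher and 1 lower than in endothelial cells, 7 higher and 1 lower than in fibroblasts, and 9 higher and 2 lower than in other cells. The median log2 differences were 0.30, 1.85 and 2.34. *Notch3* (chromosome 17, 32120820 to 32166896) stood at 399 and 355 CPM against 0 and 6.22 in endothelial cells (log2 difference 6.42 ± 0.48 SE, adjusted p = 1.2e-38) and 27.9 and 8.32 in fibroblasts (log2 difference 4.39 ± 0.38 SE, adjusted p = 7.1e-29). At least 1 *Notch3* UMI was found in 82.8% and 75.7% of mural cells, 34.5% and 43.2% after thinning, against 0.298% and 1.93% of *Neurod6*-expressing neurons. *Notch1* was higher than in endothelial cells by a smaller difference (178 and 194 against 55.7 and 104 CPM; log2 difference 1.07 ± 0.31 SE, adjusted p = 0.0066), which lost its call with doublets removed. *Notch2* was lower than in fibroblasts (23.2 and 45.4 against 114 and 125 CPM; log2 difference -1.97 ± 0.41 SE, adjusted p = 4.7e-05).

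The transcriptional targets of Notch differed among themselves. *Heyl* (chromosome 4, 123233556 to 123249870) stood at 201 and 182 CPM with no UMI in the 109 endothelial cells (at least 61.7-fold higher) and 8.38 and 19.97 CPM in fibroblasts (log2 difference 3.51 ± 0.52 SE, adjusted p = 9.6e-10). *Hey2* (chromosome 10, 30832359 to 30842783) stood at 85.2 and 61.9 CPM; with 1 UMI in endothelial cells the ratio was 71.4 (95% counting interval 12.04 to 2895), and against fibroblasts the log2 difference 2.72 ± 0.78 SE, adjusted p = 0.0086. *Nrarp*, a feedback inhibitor, stood at 143 and 94.9 CPM and was higher than in fibroblasts, where it had 2 UMIs, at a ratio of 57.5 (95% counting interval 15.2 to 485), but was not called against endothelial cells (43.3 and 103 CPM). *Hes1* was not called against either (132 and 136 CPM in mural, 117 and 110.5 in endothelial and 53.1 and 113 in fibroblast cells), and *Hes5*, a target in neural progenitors, had no UMI. Of the ligands, *Jag1* was present in mural cells at 50.3 and 90.8 CPM and not called against endothelial cells or fibroblasts, *Jag2* had no UMI against 30.9 and 48.2 CPM in endothelial cells (at least 7.08-fold lower; adjusted p = 7.0e-05), and *Dll4* stood at 3.87 and 4.13 against 21.6 and 43.6 CPM (adjusted p = 0.096), which passed the test only without the replicate block or without the conditions on *Neurod6* and *Gad2*.

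Windows of *Hey2* and *Gucy1a1* are shown because they hold more than 1 copy of GTGGGAA, the core letters of the site of RBPJ, the DNA-binding partner of Notch; *Gucy1a1* was picked after its matches were seen. Capitals mark the letters or their reverse complement TTCCCAC. Each sequence runs 5′ to 3′ on the minus strand of GRCm38.p6, at chr10:30842734-30843033 for *Hey2* and, for the one of the pair of *Gucy1a1* windows that is shown, at chr3:82145024-82145323.
Hey2: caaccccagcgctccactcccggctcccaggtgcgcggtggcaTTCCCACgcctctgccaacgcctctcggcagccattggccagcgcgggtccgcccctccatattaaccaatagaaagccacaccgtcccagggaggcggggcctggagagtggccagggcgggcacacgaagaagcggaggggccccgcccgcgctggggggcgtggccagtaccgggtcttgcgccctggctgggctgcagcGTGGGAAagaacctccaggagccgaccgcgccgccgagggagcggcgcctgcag
Gucy1a1: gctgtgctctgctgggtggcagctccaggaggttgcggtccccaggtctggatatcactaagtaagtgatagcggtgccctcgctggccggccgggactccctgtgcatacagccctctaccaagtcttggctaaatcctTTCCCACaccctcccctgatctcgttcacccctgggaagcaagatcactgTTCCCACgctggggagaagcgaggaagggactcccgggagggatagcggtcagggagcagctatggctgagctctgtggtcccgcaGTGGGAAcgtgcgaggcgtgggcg
*Hey2* had 2 matches and *Gucy1a1* 3. The letters were found in 2 of the 16 windows of the 13 Notch list genes that had one, those of *Hey2* and *Hes5*, and in 6.38% of all 32851 windows. No match in a window says nothing about more distant sites.

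PDGF and angiopoietin genes were split between the mural cell and its neighbours. Of the 6 PDGF ligands and receptors outside the rule, 2 were higher and 2 lower than in endothelial cells, none higher and 4 lower than in fibroblasts, and 2 higher and 1 lower than in other cells. Over the list the median log2 difference was -0.10, -3.18 (-1.97 with empty classes at their bound) and -1.14 in the 3 comparisons. *Pdgfb*, the ligand that recruits pericytes, was an endothelial gene, at 95.8 and 174 CPM against 15.5 and 0 CPM in mural cells (log2 difference -4.15 ± 0.62 SE, adjusted p = 6.9e-10). *Pdgfd*, another ligand of PDGFRB, had no UMI in mural cells and 105.1 and 80.9 CPM in endothelial cells (at least 14.9-fold lower). The sister receptor gene *Pdgfra* had no UMI in any mural cell, against 165 and 215 CPM in fibroblasts (at least 32.7-fold lower). *Pdgfa* was present in mural cells (58.1 and 45.4 CPM) and higher than in endothelial cells (9.28 and 9.34 CPM; 2.36 on the log2 scale). *Angpt1*, the ligand of the endothelial receptor TIE2, stood at 69.7 and 136 CPM in mural cells with no UMI in endothelial cells (at least 32.8-fold higher; adjusted p = 5.8e-17) and was not called against fibroblasts (55.9 and 126 CPM). *Tek*, which encodes TIE2, stood at 294 and 279 CPM in endothelial cells and 23.2 and 24.8 in mural cells (log2 difference -3.67 ± 0.39 SE, adjusted p = 8.6e-19). Over the list of angiopoietin, Tie and VEGF genes, 2 of 11 were higher and 5 lower than in endothelial cells, 1 higher and 2 lower than in fibroblasts, and 2 higher and 2 lower than in other cells. List medians on the log2 scale were -3.27, -0.04 and 1.14.

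The TGF-beta and BMP pathway had more genes lower than higher in the vascular comparisons, as had all tested genes. Of all tested genes, 4.61% were higher and 5.03% lower than in endothelial cells. The shares were 3.33% and 4.91% against fibroblasts, and 10.2% and 14.3% against other cells. Of 22 tested, 2 were higher and 6 lower than in endothelial cells, 2 higher and 5 lower than in fibroblasts, and 8 higher and 4 lower than in other cells. The median log2 differences were -0.98 (-0.80 with empty classes at their bound), -0.58 (-0.40 with empty classes at their bound) and 0.77. The receptor gene *Tgfbr2* stood at 30.97 and 20.6 CPM against 176 and 198 in endothelial cells (log2 difference -2.90 ± 0.40 SE, adjusted p = 2.1e-11) and *Eng*, a coreceptor, at 81.3 and 70.1 against 322 and 328 CPM (log2 difference -2.17 ± 0.30 SE, adjusted p = 2.7e-11). Both exceptions in the endothelial comparison were BMP genes. *Bmpr1a*, a BMP receptor, stood at 136 and 111 against 9.28 and 10.9 CPM (log2 difference 3.52 ± 0.46 SE, adjusted p = 1.8e-12), and the ligand gene *Bmp5* at 101 and 90.8 CPM with none in endothelial cells (at least 30.9-fold higher). *Bmp5* was not called against fibroblasts (97.7 and 115 CPM), whereas *Bmp6* had 1 UMI in mural cells and 497 and 368 CPM in fibroblasts, a mural to fibroblast ratio of 0.0048 (95% counting interval 0.000121 to 0.0269).

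Basement membrane and matrix genes made up more of the RNA of mural cells than of any other gated class, with summed levels of 11177 and 11940.4 CPM, against 5463 and 6552 CPM in endothelial cells, 6672 and 7334 CPM in fibroblasts and 384 and 392 CPM in other cells. Of 23 tested, 13 were higher and 3 lower than in endothelial cells, 9 higher and 5 lower than in fibroblasts, and 21 higher and none lower than in other cells. Over the list the median log2 difference was 1.10, 0.45 and 4.56 in the 3 comparisons. *Col4a1* and *Col4a2*, the common chains of collagen IV, stood at 2493 and 3016 and at 1370.5 and 1489.5 CPM, against 532 and 759 and 507 and 621 CPM in endothelial cells (log2 difference 2.03 ± 0.18 SE, adjusted p = 5.4e-27, and log2 difference 1.28 ± 0.19 SE, adjusted p = 7.6e-10). *Itga1*, an integrin chain that binds collagen, stood at 1328 and 1287 CPM against 226 and 201 (log2 difference 2.55 ± 0.21 SE, adjusted p = 4.3e-30) and 58.6 and 84.9 in fibroblasts (log2 difference 3.98 ± 0.24 SE, adjusted p = 3.2e-57). Both mural libraries lay above both libraries of the other classes for these 3 genes.

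Laminins and linkers varied. *Lama2* and *Lamc3*, laminin chains, had no UMI in endothelial cells and stood at 112 and 165 and at 155 and 144 CPM in mural cells (at least 44.4-fold higher, and at least 48.2-fold higher), whereas *Lama2* was lower than in fibroblasts (276 and 238 CPM; log2 difference -1.05 ± 0.27 SE, adjusted p = 0.0025), a call that DESeq2 did not make. *Lama1*, another laminin chain, was lower than in fibroblasts too (27.1 and 99.02 against 235 and 331 CPM; log2 difference -2.36 ± 0.32 SE, adjusted p = 6.0e-12). *Nid1*, which links laminin to collagen IV, stood at 557 and 532 CPM against 148 and 162 in endothelial cells (log2 difference 1.75 ± 0.23 SE, adjusted p = 4.2e-12), while its paralogue *Nid2* was lower than in fibroblasts (50.3 and 53.6 against 198 and 148 CPM; log2 difference -1.87 ± 0.35 SE, adjusted p = 4.0e-06). *Fn1*, fibronectin, and *Sparc* were lower than in endothelial cells and fibroblasts: *Fn1* at 132 and 124 CPM against 257 and 277 and 374 and 301 CPM (-1.15 and -1.55 on the log2 scale), and *Sparc* at 1525 and 1378 CPM against 2251 and 2451 and 2214 and 2258 CPM (-0.78 and -0.79). DESeq2 did not call *Sparc* in either comparison.

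Membrane transporters separated mural from endothelial cells in both directions, with 5 of 17 higher and 11 lower. The glucose transporter gene *Slc2a1* stood at 628 and 761 CPM in endothelial cells and 15.5 and 16.5 in mural cells (log2 difference -5.51 ± 0.36 SE, adjusted p = 1.7e-49), and *Abcg2*, an efflux pump gene, at 312 and 271 against 112 and 140.3 CPM (log2 difference -1.27 ± 0.27 SE, adjusted p = 6.6e-05). The higher genes included *Slc38a11*, an amino acid transporter (178 and 128 CPM; at least 49.5-fold higher), *Atp13a5*, a P-type ATPase (201 and 227 CPM; at least 68.8-fold higher), *Slc6a20a*, an imino acid transporter (61.9 and 82.5 CPM; at least 23.2-fold higher), and *Slc19a1*. *Slc6a20a* was not called against fibroblasts (75.4 and 73.2 CPM), where 3 of 17 were higher and 6 lower. *Slc1a3*, the glutamate transporter GLAST, was lower in mural cells than in fibroblasts (7.74 and 8.25 against 595 and 619 CPM; log2 difference -6.41 ± 0.41 SE, adjusted p = 1.2e-51). Against other cells, 7 were higher and 2 lower. List medians on the log2 scale were -2.48 (-1.55 with empty classes at their bound), -0.19 and 0.79.

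Ephrins and Eph receptors, contact signals between neighbouring cells, were low in mural cells and in microglia. Summed over 18 genes they reached 213 and 186 CPM in mural cells and 269 and 228 CPM in microglia. The sums were 696 and 420 CPM in endothelial cells, 916 and 1028 CPM in fibroblasts and 3388 and 3046 CPM in other cells. Of 17 tested, 1 was higher and 4 lower than in endothelial cells, none higher and 10 lower than in fibroblasts, and none higher and 11 lower than in other cells. The median log2 differences were -1.15 (-0.87 with empty classes at their bound), -3.15 (-1.99 with empty classes at their bound) and -4.64. *Epha4* had 3 UMIs over both mural libraries (3.87 and 8.25 CPM), with ratios of 0.0839 (95% counting interval 0.0169 to 0.256) to endothelial cells, 0.0927 (95% counting interval 0.0186 to 0.284) to fibroblasts and 0.0224 (95% counting interval 0.00461 to 0.0653) to other cells. *Efnb2*, the ligand ephrin B2, stood at 15.5 and 49.5 CPM, was not called against endothelial cells (55.7 and 56.02 CPM; adjusted p = 0.3) and was lower than in other cells (183 and 181 CPM; log2 difference -2.62 ± 0.35 SE, adjusted p = 6.2e-13). Its call against fibroblasts (75.4 and 68.2 CPM; adjusted p = 0.03) was lost in 4 of the 9 alternative fits. The 1 higher gene, *Efna5*, differed between the mural libraries (132 and 20.6 CPM) and lost its call with doublets removed.

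Chemokine and guidance genes showed no common direction, with 4 of 18 higher and 5 lower than in endothelial cells, 4 higher and 6 lower than in fibroblasts, and 5 higher and 8 lower than in other cells. Over the list the median log2 difference was -0.51, -0.15 and -0.98 in the 3 comparisons. *Sema6d*, a transmembrane semaphorin, stood at 519 and 519.9 CPM and was higher than in all 3 classes, for example against fibroblasts (8.38 and 34.9 CPM; log2 difference 4.28 ± 0.30 SE, adjusted p = 6.5e-42), although DESeq2 did not call it against endothelial cells. *Cxcl12*, a chemokine that guides interneurons and vessels, was lower than in fibroblasts (30.97 and 24.8 against 1189.6 and 1256 CPM, log2 difference -5.61 ± 0.31 SE, adjusted p = 3.8e-71). It was also called lower than in endothelial cells. *Robo1* stood at 30.97 and 136 CPM in mural and 986 and 911 in other cells and was lower (-3.64 on the log2 scale). *Ccl2*, a chemokine of microglia here (718 and 90.8 CPM), stood at 30.97 and 16.5 CPM in mural cells and had no UMI in endothelial cells or fibroblasts (at least 7.72-fold higher than in endothelial cells; adjusted p = 0.0033).

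Cell cycle and immediate early genes differed between the mural libraries. The 15 mitosis genes summed to 1026 CPM in WT replicate 1 and 347 CPM in WT replicate 2, and *Top2a* stood at 178 and 12.4 CPM. None of the 15 was higher in mural cells in any comparison, and 3, 1 and 1 were lower than in endothelial cells, fibroblasts and other cells, where 5.03%, 4.91% and 14.3% of all tested genes were lower and 4.61%, 3.33% and 10.2% higher. Nothing is read from these counts of 15 genes. List medians on the log2 scale were -0.48, -0.18 and -0.40. *Cdk1*, the mitotic kinase, was among the lower genes (92.9 and 16.5 against 164 and 114 CPM in endothelial cells; log2 difference -1.35 ± 0.36 SE, adjusted p = 0.0024) and lost its call in DESeq2, with doublets removed and without the conditions on *Neurod6* and *Gad2*. At least 3 mitosis genes were detected in 6 of 29 mural cells (20.7%, exact interval 7.99 to 39.7%) and in 2 of 37 (5.41%, 0.661 to 18.2%), so the intervals overlapped. *Neurod6*-expressing neurons, which do not divide, gave 3.73% and 5.68%. Before thinning, the mural share in WT replicate 2 lay between these 2 values, and no difference from the neurons is read from the cells of 1 library. With 1500 UMIs per cell the mural shares were 17.2% and 5.41%, the neurons' 1.79% and 2.90%, and the endothelial shares 10.0% and 11.4%. With doublets removed, 2 of 25 (exact interval 0.984 to 26.0%) and 1 of 34 mural cells were left with 3 mitosis genes, a mean of 5.47% instead of 13.0%. The neurons' share was not computed with doublets removed.

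**Figure D5:**
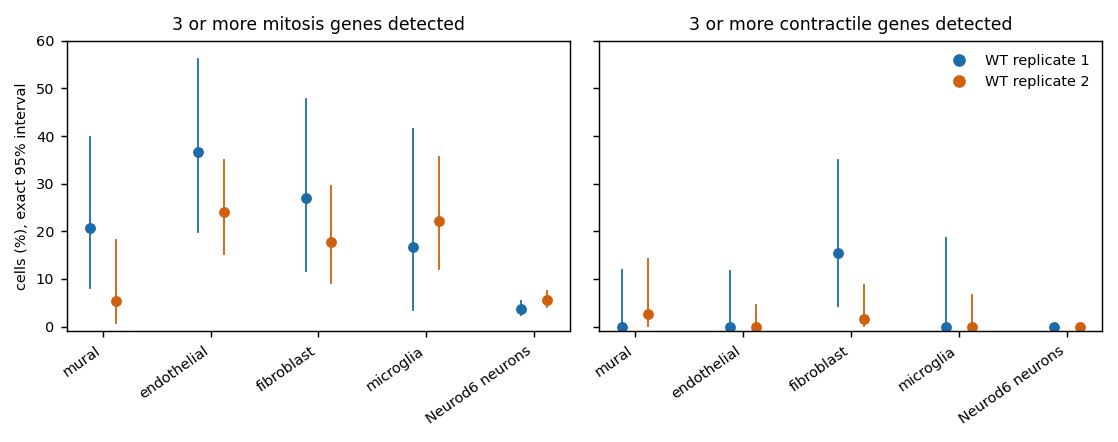
Share of cells with at least 3 of 15 mitosis genes (left) or at least 3 of 10 contractile genes (right) in each class, in percent, with exact 95% binomial intervals (blue, WT replicate 1; orange, WT replicate 2). Mitosis genes were found in 20.7% and 5.41% of mural cells against 36.7% and 24.1% of endothelial cells, and contractile genes in 0% and 2.70% of mural cells; median depth per cell ranged from 2904.5 UMIs in microglia to 12313.5 UMIs in fibroblasts.

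Immediate early genes, which respond within minutes to stimulation and to cell dissociation, summed to 1154 CPM in WT replicate 1 and 1890 CPM in WT replicate 2 of the mural cells. *Fos* stood at 46.5 and 243 CPM, *Fosb* at 7.74 and 70.1 CPM and *Jun* at 96.8 and 355 CPM, each higher in WT replicate 2. In fibroblasts these genes were higher in WT replicate 1, at 318 and 123, 128 and 56.6 and 408 and 209.7 CPM, and in endothelial cells *Fos* stood at 27.8 and 10.9 CPM. The whole list was higher in WT replicate 2 in endothelial cells, at 1320 and 1472 CPM. It was higher in WT replicate 1 in fibroblasts (2284 and 1201 CPM), microglia (2192 and 1317 CPM) and other cells (498 and 431 CPM). The order of the libraries therefore differed between classes, which was not tested. *Fos* was higher in mural than in endothelial cells (log2 difference 3.01 ± 0.42 SE, adjusted p = 2.6e-11), a call that DESeq2 did not make, and higher than in other cells (log2 difference 3.33 ± 0.30 SE, adjusted p = 1.1e-27). *Klf2*, a gene that blood flow induces in endothelium, was lower than in endothelial cells (19.4 and 16.5 against 294 and 387 CPM; log2 difference -4.32 ± 0.40 SE, adjusted p = 2.5e-25). Of 17 tested, 3 were higher and 3 lower than in endothelial cells, 2 higher and 4 lower than in fibroblasts, and 12 higher and none lower than in other cells, against a background of 10.2% higher in the last comparison. The median log2 differences were 0.12, -0.09 and 2.12.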

How the data were processed

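Single-cell 3′ gene expression libraries (10x chemistry version 3.1) of the cerebral cortex of WT embryos at E16.5 were analysed, 1 library for each of WT replicate 1 and WT replicate 2. The authors deposited UMI counts per gene and barcode, not normalized. The submitters' processing notes name mm10 and Cell Ranger 7.0.0, whereas the matrix headers name 7.1.0, and the annotation version is not given in the sources used here. Doublets were not stated to have been removed, and barcodes with high scores in Scrublet (scanpy 1.11.5; 0.8% for every 1000 barcodes) were removed only as an alternative.

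The mural rule and the other gates were applied to barcodes with 1500 to 60000 UMIs and less than 10% mitochondrial UMIs. Endothelial cells had 3 or more of *Cldn5*, *Pecam1*, *Cdh5*, *Flt1*, *Kdr* and *Emcn* with *Kcnj8*, *Pdgfrb*, *Abcc9*, *Lum*, *Dcn*, *Neurod6* and *Gad2* at 0. Fibroblasts had 3 or more of *Lum*, *Dcn*, *Col1a1*, *Col3a1*, *Ogn* and *Aldh1a2* with *Cldn5*, *Pecam1*, *Kcnj8*, *Abcc9*, *Neurod6* and *Gad2* at 0. Microglia had 3 or more of *C1qa*, *C1qb*, *Csf1r*, *Cx3cr1*, *Tyrobp* and *Fcer1g* with the endothelial, mural and fibroblast genes of those gates and *Neurod6* and *Gad2* at 0. Other cells had at most 1 gene of each gate list, and *Neurod6*-expressing neurons were other cells with at least 10 *Neurod6* UMIs, a limit set after the data were seen. The members, gene lists and tests were chosen with earlier results of these data known, and genes that vary with a gate gene are not independent of it.

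Counts were summed per library and class (10 sums) and fitted with edgeR 4.0.16 (R 4.3.3; TMM scaling, quasi-likelihood F-test, library as block). A gene entered the test if 2 or more sums held 10 counts or more of it, and the 26 gate genes were left out. Levels are CPM of the summed counts. Genes were named by 1 rule: per comparison, the 10 called genes of largest fitted fold in each direction with at least 50 CPM in the higher class, the same direction in both libraries, and no gate, mitochondrial, ribosomal protein or sex-linked gene; any gene of the lists could also be named. The values of 1 gene of the transporter list are not reported here. Classes of a number came from the same library, hence the block, although deviations of mural sums from their mean correlated with those of the other classes by only -0.0067 to 0.022. The labels do not say whether the libraries came from separate animals, so p-values stand for these 2 libraries only. They measure the spread of the sums that is left after class and library are fitted. This spread was estimated jointly over all 5 classes, whose sums held from 18 to 9638 cells. Exact binomial intervals and the limit set by 3 counts cover counting error only. Alternatives were DESeq2 1.42.0, its size factors, no filter, no block, fewer classes, at least 4 markers, doublets removed, less than 5% mitochondrial UMIs, thinning to 1500 UMIs, each library alone and, chosen after seeing the data, no condition on *Neurod6* and *Gad2*. Gene positions and promoter windows are those of RefSeq on GRCm38.p6, matched by symbol. The procedure was tested on simulated counts.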

Additional observations from a re-analysis of the deposited data

Results flagged for a closer look

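Barcodes outside the limits on UMIs and mitochondrial share also met the marker rule: 14 in WT replicate 1 and 23 in WT replicate 2, next to the 29 and 37 mural cells within the limits. They came to attention because these barcodes enter no comparison. Of the 37, 35 had 10% or more mitochondrial UMIs and 4 had fewer than 1500 UMIs. Their median mitochondrial share was 16.3% and 14.8%, and their median depth 2773 and 2447 UMIs. *Higd1b*, which the rule did not use, was detected in 22 of them.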

How the results depend on the processing

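Numbers of called genes over both directions stayed within 1.5 times the reported ones in every alternative fit, and by direction all did but the genes lower than in other cells, 1433 with DESeq2 against 2580. DESeq2 called 1443 genes against endothelial cells, 1171 against fibroblasts and 3461 against other cells, the last with 58.6% higher against 41.7%. Without the replicate block the numbers were 1974, 1690 and 4835, more than with the pairing by library in each comparison. With doublets removed they were 1490, 1160 and 4013. Against endothelial cells, where more genes were lower, more were higher with DESeq2 (788 and 655 lower), its size factors (895 and 868), doublets removed (750 and 740) and no condition on *Neurod6* and *Gad2* (1052 and 918). Of 2027 refits of 226 differences of single genes, 1979 kept their direction and side of the threshold, 30 lost the call (12 of them in DESeq2, 7 with doublets removed), 4 gained it and 14 turned round. Among called differences this befell *Meis2*, which without the conditions on *Neurod6* and *Gad2* lay at 1.02 against endothelial cells and 2.27 against fibroblasts (log2). Differences that were not called and lay near 0 also changed sign: *Angpt1* against fibroblasts with DESeq2 (0.076), its size factors (0.021), no filter (0.0036), fewer classes (0.10), doublets removed (0.29) and no such conditions (0.12), *Foxf2* against endothelial cells with size factors (0.038) and fewer classes (0.057), *Higd1a* against other cells (-0.043) and *Zic1* against fibroblasts (-0.052) with doublets removed, and *Zic1* (-0.016) and *Prrx1* (-0.17) against fibroblasts without the conditions. In each library alone, the values had no test and were log2 ratios of CPM with 1 UMI added, not fitted folds. Of 452 such values, 269 lay further from the fitted difference than the spread between replicates and 183 did not. The change of measure is part of this count, so it does not show dependence on a library by itself. No called difference turned round. A number of called genes could not be had because no residual degrees of freedom were left. Against other cells the median of all genes moved by 0.60 with DESeq2, 0.15 with its size factors, -0.55 without the filter on low counts and 0.21 without the conditions on *Neurod6* and *Gad2* (log2). The share of mural cells was 0.272% with less than 5% mitochondrial UMIs and 0.640% without the conditions on *Neurod6* and *Gad2*, which also took the contractile share from 1.35% to 4.92%. The cause was not tested. In single libraries the mural share ranged from 0.361% to 0.486%, the mitosis share from 5.41% to 20.7% and the contractile share from 0% to 2.70%. With 66 cells and 258304 and 242371 UMIs, 1 UMI was worth about 4 CPM in a mural library, so genes under about 12 CPM rest on 3 counts or fewer.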
